A study of Mus musculus with 2 samples.

Results

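The ribosomal protein genes described here are the 83 genes of the mouse count table whose symbols begin with Rps or Rpl followed by a number and an optional letter ending, together with Rplp0, Rplp1, Rplp2 and Rpsa. Kinases of the Rps6k family and pseudogenes whose symbols end in -ps were left out. The table held 26033 genes. Of the 83 members, 32 encode proteins of the small (40S) ribosomal subunit, 48 proteins of the large (60S) subunit and 3 the P stalk of the large subunit. The standard set of cytoplasmic ribosomal proteins made up 77 of them. The other 6, Rpl3l, Rpl7l1, Rpl10l, Rpl22l1, Rpl39l and Rps27l, are paralogs with their own symbols. Each of the 83 had at least 1 unique molecular identifier (UMI, a tag that marks 1 captured RNA molecule), and 80 had at least 200 UMIs over both libraries and were compared between them.

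The RNA came from nuclei of whole salivary glands of C56BL/6 mice (strain name as in the labels) aged 20 days, taken without selecting a cell type. There were 2 droplet libraries, both made with 10x Chromium 3' chemistry. The control library was from Csf2+/- mice, which carry 1 intact copy of the gene for the cytokine GM-CSF, and the null library from Csf2-/- mice, which carry none. No wild-type library was among them. The labels did not say how many animals went into a library. Genotype, animal and library preparation therefore cannot be told apart, no test between genotypes was possible, and each interval below is a 95% interval for counting error only.

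The libraries held 68460 (control) and 74339 (null) barcodes, with 76002888 and 75630815 UMIs, and shared 1367 barcode sequences. Ribosomal protein genes took 1553096 control UMIs (2.04%) and 2210755 null UMIs (2.92%). Most barcodes were shallow: 49061 and 56671 had under 1000 UMIs, and these are called free RNA here, that is, droplets that mostly hold RNA released from broken cells. The gland's secretory products dominated them. The 8 most abundant, among them Mucl2, Prol1, Smgc and Pip, took 36.7% of control and 45.4% of null free-RNA UMIs. Nuclei were the barcodes with at least 1000 UMIs outside the free-RNA clusters, 8496 (control) and 13860 (null) in number, and had 2827 and 1982 UMIs at the median. They fell into 15 classes, of which 12 could be named from marker genes and 3 are given by number. Csf2 gave 5 control UMIs and 0 null UMIs, too few to check the labels.

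A ribosome joins a small subunit, which decodes the mRNA, to a large subunit, which forms peptide bonds, and nearly every ribosomal protein is present once per ribosome. The P stalk, built from Rplp0 with Rplp1 and Rplp2, recruits the elongation factors and is the exception, because its small proteins are present in more than a single copy. The mRNAs are short, stable and cytoplasmic, and many begin with a run of pyrimidines, the TOP motif, through which the kinase complex mTORC1 and the RNA-binding protein Larp1 control their translation. Salivary acinar cells secrete large amounts of protein and hold a dense rough endoplasmic reticulum studded with ribosomes.

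The starts of these genes are shown because the TOP run is the sequence feature the family is best known for, and because the genes below moved as a group. RefSeq promoters (GRCm38.p6) were matched for 63 members by symbol, 75 promoters in all. A run of at least 8 C or T on the coding strand, within 25 bases either side of the annotated start, was present in 34 of the 75 (45.3%), against 19.7% of all 32851 promoters of the table. The annotated start itself was a C followed by 4 pyrimidines in 13 (17.3%), against 2.51% of all. CCGGAAG on either strand, the core that Ets factors recognise, lay in 27 of the 300-base promoters (36%), against 8.86% of all. TATAAA on the coding strand in the 50 bases before the start was in 1 (1.33%), against 2.63%. Below are 30 bases before the start and 20 from it, with the longest run in capitals where it reaches 8. Rpl41 and Rps24 are among the most abundant members, and the other 8 stood at an end of a comparison below.
Rps24: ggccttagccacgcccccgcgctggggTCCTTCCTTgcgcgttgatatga
Rpl14: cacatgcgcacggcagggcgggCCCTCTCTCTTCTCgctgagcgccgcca
Rps10: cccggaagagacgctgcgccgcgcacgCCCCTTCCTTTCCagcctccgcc
Rpl13a: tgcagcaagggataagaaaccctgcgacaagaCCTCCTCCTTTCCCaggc
Rpl41: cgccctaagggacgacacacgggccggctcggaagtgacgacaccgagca
Rplp0: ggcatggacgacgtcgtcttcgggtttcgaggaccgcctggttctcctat
Rpl10: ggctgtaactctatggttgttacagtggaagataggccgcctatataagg
Rpl24: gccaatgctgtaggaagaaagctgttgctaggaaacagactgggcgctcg
Rpl10a: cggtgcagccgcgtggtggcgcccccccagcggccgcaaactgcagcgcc
Rpl7l1: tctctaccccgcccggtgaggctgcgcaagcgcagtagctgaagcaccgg
These windows lie at chr14:24490648-24490697 (Rps24, plus strand), chr9:120571487-120571536 (Rpl14, plus), chr17:27635225-27635274 (Rps10, minus), chr7:45128726-45128775 (Rpl13a, minus), chr10:128549149-128549198 (Rpl41, minus), chr5:115559437-115559486 (Rplp0, plus), chrX:74270786-74270835 (Rpl10, plus), chr16:55966245-55966294 (Rpl24, plus), chr17:28328441-28328490 (Rpl10a, plus) and chr17:46782637-46782686 (Rpl7l1, minus). The first 4 hold a run and the other 6 hold none in the window. Rps24 and Rpl10a each have 2 promoters in the table, of which 1 holds a run, shown here for Rps24 and not for Rpl10a. A run, or none, is a description of the annotated start only, and the 3' counts do not show which start was used.

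In free RNA, ribosomal protein genes made up 2.61% of control UMIs and 3.83% of null UMIs. The levels of single members are given as counts scaled to 1000000 UMIs of the compartment (CPM). In a 3' tag library each captured molecule gives 1 UMI, so these values were not divided by transcript length. Among the 80 members with at least 200 UMIs, the median level was 312 CPM (control) and 469 CPM (null), with a range of 21.9 to 1120 and of 21.5 to 1560 CPM. The members of the small subunit had medians of 323 and 472 CPM, and those of the large subunit medians of 299 and 457 CPM.

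Members among those with the most UMIs in free RNA came from both subunits and the stalk. Rpl41, which encodes a very short peptide of the large subunit, had 41531 control and 63646 null UMIs, or 1120 and 1560 CPM. Rplp1, a stalk protein gene, followed at 973 and 1407 CPM. Each was well above the next members in both libraries. The small-subunit genes Rps24 and Rps29 were at 608 and 637 CPM (control) and at 896 and 860 CPM (null). Rpl32, of the large subunit, was at 542 and 858 CPM. These 3 lay close together, and their order differed between the libraries.

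Nuclei carried a smaller share of ribosomal protein UMIs than the free RNA of the same library. The share was 1.08% (1.08 to 1.08) in control and 1.63% (1.63 to 1.64) in null nuclei, and the log2 ratio of nuclei over free RNA was -1.27 and -1.23. No class reached the level of free RNA. In the control library the classes ranged from 0.930% in cluster 12 to 1.43% in NK, ILC and T-like nuclei, and in the null library from 1.37% (1.33 to 1.41) in cycling-like to 1.82% (1.76 to 1.89) in NK, ILC and T-like nuclei. The highest class thus was 1.54 times the lowest among control and 1.33 times among null classes. The NK, ILC and T-like class was also small, with 47 and 81 nuclei. Acinar-like nuclei, from the secretory cells themselves, had 1.10% and 1.72%, near the value of all nuclei in both libraries. Macrophage-like nuclei had 1.12% and 1.62%, and fibroblast-like nuclei 0.941% and 1.44%.

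**Figure D1:**
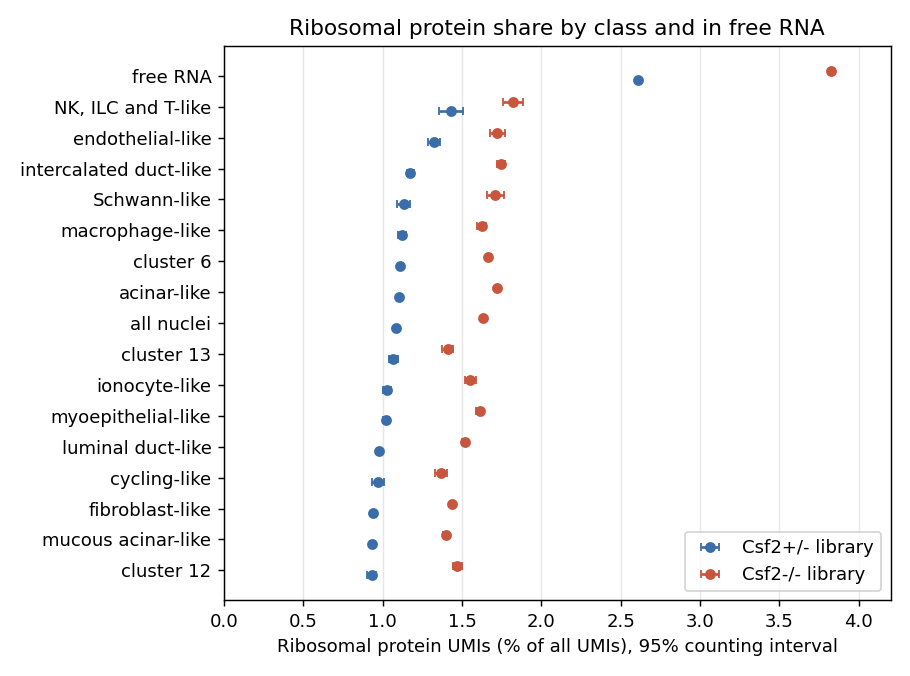
Ribosomal protein UMIs as a percentage of all UMIs (horizontal axis) for free RNA, all nuclei and each of the 15 classes (vertical axis), with blue points for the Csf2+/- and red points for the Csf2-/- library and bars for 95% counting intervals. Free RNA stands apart at 2.61% and 3.83%, the classes lie between 0.930% and 1.82%, and the red point is to the right of the blue point in each row.

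The number of ribosomal protein UMIs per nucleus varied less than the share. Control nuclei had a median of 30 and null nuclei of 33, and free-RNA barcodes had 19 and 27. Over the classes the medians ran from 27 (macrophage-like) to 36 (cluster 13 and cycling-like) in the control library. In the null library they ran from 31 (Schwann-like) to 35.5 (cycling-like). The share moved with depth. Control nuclei with 1000 to 1500, 1500 to 2500 and 2500 to 5000 UMIs had 1.65%, 1.28% and 1.02%, and null nuclei 2.17%, 1.72% and 1.35%. In nuclei with at least 5000 UMIs it was 0.979% and 1.41%, so the null value there was above that of the bin before it. The part of depth in the differences between classes was not tested.

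Ribosomal protein UMIs moved with those of the secretory genes, which only the secretory cells make in quantity. Per 1000 secretory UMIs, control free RNA held 71.0 ribosomal protein UMIs and null free RNA 84.4. All nuclei held 74.1 and 87.0. In the stromal and immune classes, which do not secrete saliva, the ratio was 77.7 and 90.4 in fibroblast-like, 75.8 and 87.5 in macrophage-like and 76.2 and 89.8 in Schwann-like nuclei. It was further above free RNA in endothelial-like nuclei of the null library (76.9 and 95.1) and in NK, ILC and T-like nuclei (82.3 and 95.1). In acinar-like nuclei it was 68.8 and 83.4. The lowest values, 67.5 and 79.3, were in cluster 6, and the highest, 101 and 103, in cluster 13.

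The amount of free RNA in a class was estimated as its secretory share over that of the free RNA, and was 39.7% of control and 41.4% of null UMIs in all nuclei. The ribosomal protein UMIs counted in nuclei were 1.04 (control) and 1.03 (null) times those that this amount of free RNA would bring. In the stromal and immune classes combined (1618 and 2195 nuclei) they were 1.09 and 1.07 times, and over the 15 classes 0.951 to 1.43 and 0.940 to 1.22 times. Acinar cells make the secretory products themselves, so in acinar-like nuclei the estimate may include the cells' own transcripts, which was not tested. With mitochondrial UMIs in place of the secretory genes, a reference chosen after seeing the data, the ratios were larger, 1.40 and 1.18 in all nuclei and 1.30 and 1.14 in stromal and immune nuclei. The 2 references thus differed on how many ribosomal protein UMIs lay beyond free RNA. Across the 15 classes, the secretory share and the ribosomal protein share had a Pearson correlation of 0.82 among control and 0.87 among null classes. With the mitochondrial share it was 0.92 in both. The classes of a library share its free RNA and differ in depth.

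**Figure D2:**
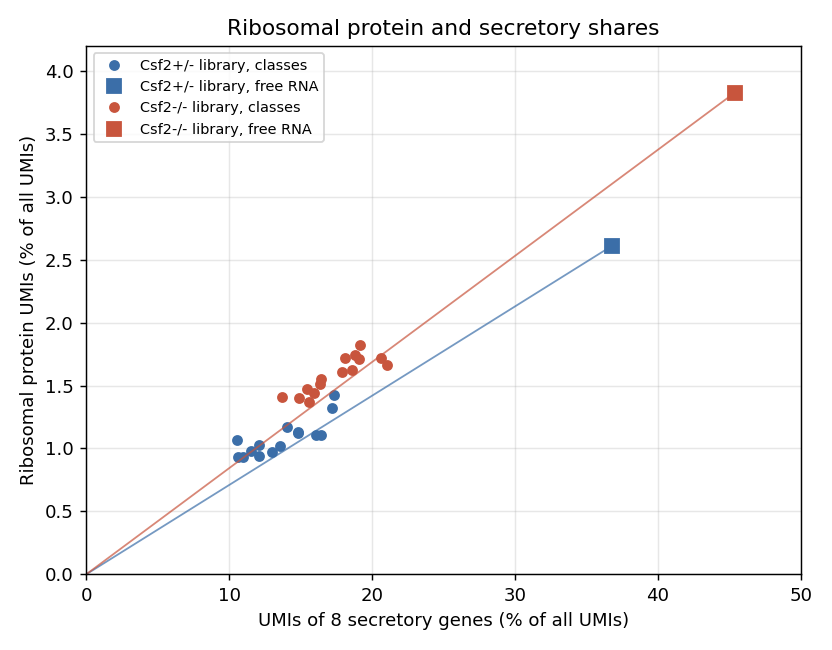
Share of UMIs from 8 secretory genes (horizontal axis, %) against the share from ribosomal protein genes (vertical axis, %), with circles for the 15 classes, squares for free RNA and blue for the Csf2+/-, red for the Csf2-/- library. Each line joins the origin to that library's free RNA, and the circles lie near their own line, with ratios to it of 0.951 to 1.43 (control) and 0.940 to 1.22 (null).

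Gene by gene, 79 of the 80 members had a lower CPM in nuclei than in free RNA in each library, and the exception was Rpl7l1. The median log2 ratio of nuclei over free RNA was -1.28 for control and -1.23 for null. At least 2-fold lower were 70 and 75 members. The shares of all genes that were lower, or 2-fold lower, are not given here, so these counts have no background at the same cut. For the 11869 genes with at least 200 UMIs in nuclei the medians were 0.48 and 0.75, and 0.800% of them lay below the member median. Genes of less than 5000 bp, a span that holds 63 of the members, had medians of 0.02 and 0.01 over all genes and of -1.30 and -1.24 over members. The small subunit (-1.31 and -1.25), the large subunit (-1.24 and -1.20) and the stalk (-1.27 and -1.23) did not stand apart from each other. The ratios of the 80 members in the 2 libraries had a Pearson correlation of 0.92.

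Rpl7l1 encodes a relative of the large-subunit protein Rpl7 that is known as a nucleolar factor of large-subunit assembly. It had 812 control and 878 null UMIs in free RNA, or 21.9 and 21.5 CPM, and 22.6 and 29.9 CPM in nuclei. Its log2 ratio was thus 0.04 and 0.47, while Rpl7 itself had -1.42 and -1.30. It was the only member more than 2-fold from the median member in both libraries. Within classes it held the same place in acinar-like, fibroblast-like, luminal duct-like, intercalated duct-like, mucous acinar-like and myoepithelial-like nuclei and in cluster 6. Each of the other classes had fewer than 40 Rpl7l1 UMIs over both libraries, the minimum for this comparison. Myoepithelial-like nuclei had only 21 and 24 such UMIs, and intercalated duct-like nuclei 24 and 36. In stromal and immune nuclei Rpl7l1 was at 2.51 and 2.97 times the free-RNA estimate, the highest of the 80 members in both libraries. There the median member was at 1.09 and 1.07 times, and 72 and 76 members were less than 25% above and less than 20% below 1.

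Rpl13a, of the large subunit, came next. It had 31.3 and 37.3 CPM in free RNA and 24.2 and 26.4 CPM in nuclei, a log2 ratio of -0.37 and -0.50. Its free-RNA level was the lowest of the standard set in both libraries. Rpl10a, a neighbour of the exit site for spent tRNA, had 330 and 457 CPM in free RNA and 225 and 277 CPM in nuclei (-0.55 and -0.72). Rpl22 (-0.90 and -0.99) and Rpl5 (-0.88 and -1.03), which carries 5S rRNA into the large subunit, completed the 5 highest. At the other end were Rps27l (-1.57 and -1.29), Rpl39 (-1.54 and -1.39), Rps29 (-1.51 and -1.36), Rpl32 (-1.48 and -1.39) and Rplp1 (-1.45 and -1.41). Apart from Rpl7l1, Rpl13a and Rpl10a, the members lay within a narrow band.

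**Figure D3:**
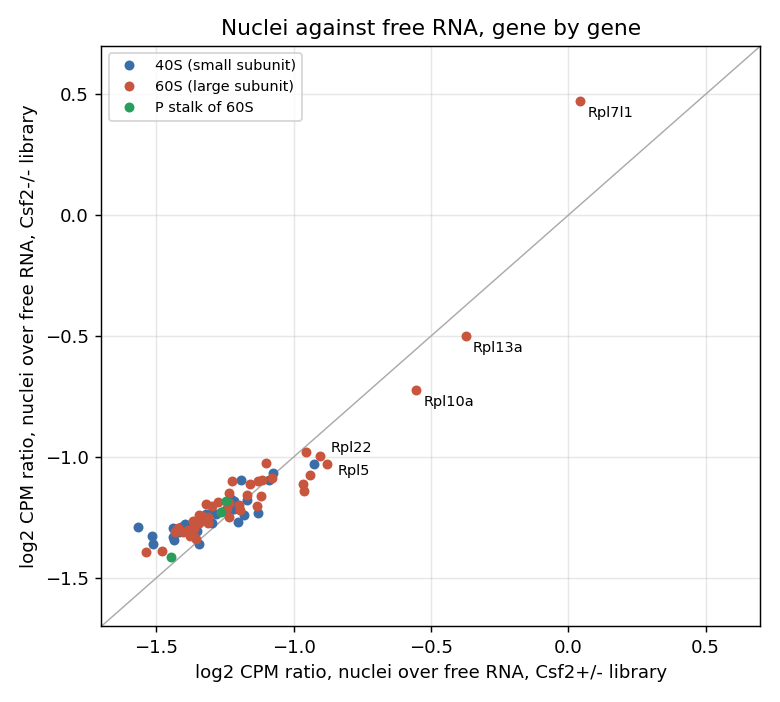
Log2 ratio of CPM in nuclei over CPM in free RNA for the 80 members, in the Csf2+/- library (horizontal axis) and the Csf2-/- library (vertical axis), coloured by subunit, with the line of equal values in grey. Rpl7l1 (0.04 and 0.47) lies far from the rest, Rpl13a and Rpl10a lie between, and the other members form a cloud around -1.28 and -1.23.

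The level of Rpl10a also differed between large classes in both libraries. In acinar-like nuclei it had 2910 control and 4263 null UMIs, or 264 (255 to 274) and 317 (307 to 327) CPM. In fibroblast-like nuclei it had 484 and 758 UMIs, or 140 (128 to 153) and 212 (197 to 228) CPM. The intervals of the 2 classes did not overlap in either library. It took 2.39% and 1.84% of the ribosomal protein UMIs of acinar-like nuclei, 1.49% and 1.47% in fibroblast-like nuclei, and 1.27% and 1.19% in free RNA. Cluster 6 had 2.37% and 1.70%, cluster 13 2.31% and 1.72%, and cluster 12 2.20% and 1.56%. Luminal duct-like nuclei had 2.10% and 1.65%, and mucous acinar-like nuclei 1.72% and 1.45%. Cycling-like nuclei, on 58 and 97 UMIs, had 2.13% and 1.93%, so acinar-like nuclei were not the highest class in the null library. Other members were lower in fibroblast-like than in acinar-like nuclei too, as was the family's share (0.941% and 1.44%, against 1.10% and 1.72%). Rpl27a, for example, had 227 and 356 CPM in acinar-like and 173 and 255 CPM in fibroblast-like nuclei. The estimated free RNA was 43.7% and 45.5% of UMIs in acinar-like and 33.0% and 35.1% in fibroblast-like nuclei, and its part was not tested. These class comparisons were chosen after the values were seen.

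The large subunit and stalk took 57.2% to 60.5% of ribosomal protein UMIs in the classes of the control library and 58.0% to 59.3% in those of the null library, and 58.5% in free RNA of both. Of the 79 members with at least 20 UMIs in both libraries in 7 or more classes, 8 had their highest share in the same class in both. Of these, the 6 that varied most were Rps15, Rpl35, Rpl27a, Rpl30, Rps20 and Rpl39. Rpl27a took 2.33% (1.88 to 2.85) of ribosomal protein UMIs in cluster 12 of the control and 2.16% (1.87 to 2.48) of the null library, against 1.73% and 1.70% in free RNA. Rps20 was highest in cycling-like nuclei, at 1.62% (1.18 to 2.17) and 1.93% (1.57 to 2.35), against 1.53% and 1.65% in free RNA. Rps15 in NK, ILC and T-like nuclei rested on 20 and 41 UMIs. Rpl35 in cluster 12 rested on 30 and 58, Rpl30 in Schwann-like nuclei on 46 and 56, and Rpl39 in cluster 13 on 70 and 84 UMIs. For Rps15, Rpl35, Rpl30, Rps20 and Rpl39 the interval of the highest class took in the free-RNA value in both libraries, so no difference from free RNA was detectable at this depth. Cluster 12 was picked for Rpl27a as its highest class in these same values, so its intervals are no evidence of a class difference. How many of the 79 members would share a highest class by luck was not worked out.

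Between the genotypes, ribosomal protein genes were higher in the null library, in free RNA and in nuclei alike. In free RNA 73 of the 80 members were higher in the null library by at least 25%, and 0 were lower by at least 20%. These margins, the same fold up and down, define higher and lower in the counts that follow. Over the 11560 genes with at least 200 UMIs there, 8.7% were higher and 49.9% lower. In all nuclei 72 of 80 were higher and 0 lower, against 9.93% higher and 16.4% lower of 11869 genes. The median log2 ratio of null over control was 0.56 in free RNA and 0.59 in nuclei, with ranges of -0.09 to 0.79 and of -0.02 to 0.83. The median of all genes tested was -0.32 in free RNA and -0.09 in nuclei. Relative to it, the member medians were 0.88 and 0.68. Null nuclei were also shallower than control nuclei, and at matched depth, a comparison added after seeing the data, the difference was smaller. In nuclei with 1500 to 2500 UMIs (2745 control and 7315 null) the median member was at 0.44, with 61 of 80 higher and 0 lower, against 8.78% and 17.1% of 9138 genes. In those with 2500 to 5000 UMIs (4703 and 3285) it was at 0.41, with 55 of 80 higher and 0 lower, against 9.59% and 11.2% of 10059 genes. Per nucleus the median number of ribosomal protein UMIs was 30 and 33, as given above. Free RNA pools the whole gland, and a change in the mix of cells and a change in RNA per cell cannot be told apart in it. The secretory share was also higher in the null library, in free RNA and in each of the 15 classes, and its part in the result was not tested.

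The share was higher in the null library in all 15 classes, and the counting intervals did not overlap in any of them. The log2 ratio of the summed share ran from 0.35 (0.26 to 0.44) in NK, ILC and T-like to 0.66 (0.61 to 0.72) in cluster 12, and was 0.64 in acinar-like, 0.63 in luminal duct-like, 0.61 in fibroblast-like and 0.53 in macrophage-like nuclei. The 6 smallest clusters, each with under 50 nuclei in a library and pooled here, had 0.20 (0.17 to 0.23). In stromal and immune nuclei together 71 of 80 members were higher and 0 lower, against 10.1% and 14% of 7286 genes. In acinar-like nuclei 73 of 80 were higher and 0 lower, against 11% and 17.9% of 8754 genes. In fibroblast-like nuclei it was 71 of 78 and 0, against 10.7% and 16.2% of 5817 genes, and in macrophage-like nuclei 44 of 51 and 0, against 8.17% and 22.3% of 1603 genes. In free RNA itself the ratio of the summed share was 0.55. Once the estimated free RNA was subtracted from each class, the share was higher in the null library in 8 of 15 classes. Over all nuclei the median member was then at 0.091, with 16 members higher and 13 lower. The shares over all genes after subtraction are not given here, so these counts have no background beside them. Before subtraction, ribosomal protein UMIs in all nuclei were 1.04 (control) and 1.03 (null) times the estimate, so only a small remainder was compared.

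Both subunits took part. In free RNA 31 of 32 small-subunit members and 41 of 45 large-subunit members were higher (medians 0.57 and 0.54), and in nuclei 31 of 32 and 40 of 45 (medians 0.61 and 0.60). The 5 highest ratios in free RNA were all in the large subunit. Rpl10, which completes the subunit's maturation in the cytoplasm, went from 223 CPM (control) to 385 CPM (null), with a log2 ratio of 0.79 (0.75 to 0.83), and in nuclei from 116 to 183 CPM (0.66). Rpl24, at the bridge between the subunits, went from 291 to 491 CPM (0.75). Rpl21, Rpl18 and Rpl13 each had 0.72. Among the highest in nuclei were Rps26, at the mRNA exit channel, with 136 and 243 CPM (0.83, 0.78 to 0.89), Rpl24 (0.82), Rpl21 (0.81) and Rpl28 (0.77). Members with a well-known part in disease or signalling lay inside the group, and were picked for that: the Diamond-Blackfan anaemia gene Rps19 had 0.58 in free RNA and 0.52 in nuclei, and the S6 kinase substrate gene Rps6 had 0.47 and 0.37.

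The stalk was divided. Rplp1 went from 973 to 1407 CPM in free RNA (0.53) and from 357 to 528 CPM in nuclei (0.57). Rplp2 went from 161 to 184 CPM (0.19, 0.14 to 0.24) and from 66.9 to 78.5 CPM (0.23). Rplp0, their anchor on the ribosome, had 211 and 199 CPM in free RNA (-0.09, -0.13 to -0.04) and 89.0 and 87.6 CPM in nuclei (-0.02, -0.10 to 0.06), the lowest ratio of the 80 members in both compartments. Its small difference is above 0 when the ratios are centred on all genes (0.23 and 0.06) or when secretory UMIs are left out of the totals (0.12 and 0.05). As a share of ribosomal protein UMIs, Rplp0 went from 0.809% to 0.519% in free RNA, from 0.807% to 0.533% in acinar-like nuclei and from 0.822% to 0.523% in fibroblast-like nuclei.

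The other members less than 25% higher in free RNA were Rpl7l1 (-0.03), Rps10 (0.05), Rpl14 (0.18), Rplp2 (0.19), Rpl13a (0.25) and Rpl5 (0.32). In nuclei they were Rpl13a (0.12), Rpl5 (0.17), Rpl14 (0.17), Rps10 (0.17), Rpl3 (0.19), Rplp2 (0.23) and Rpl10a (0.30). Rps10, of the small-subunit head, had 107 and 111 CPM in free RNA and 40.3 and 45.4 CPM in nuclei. Rpl14 had 140 and 158 CPM, and 66.2 and 74.4 CPM. Rpl14, Rps10, Rpl13a, Rplp0, Rplp2 and Rpl5 were below that margin in both compartments. The 32 tested members with a pyrimidine run near an annotated start had a median of 0.49 in free RNA and 0.61 in nuclei, and the 28 with promoters but no run had 0.55 and 0.56. At the low end Rpl14 and Rps10 hold a run, and Rplp0 and Rpl7l1 hold none, as the sequences above show. Of the high members, Rpl10 and Rpl24 hold none, while Rpl13, Rpl18, Rps26 and Rpl28 hold a run. Members with and without a run thus lay at both ends.

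**Figure D4:**
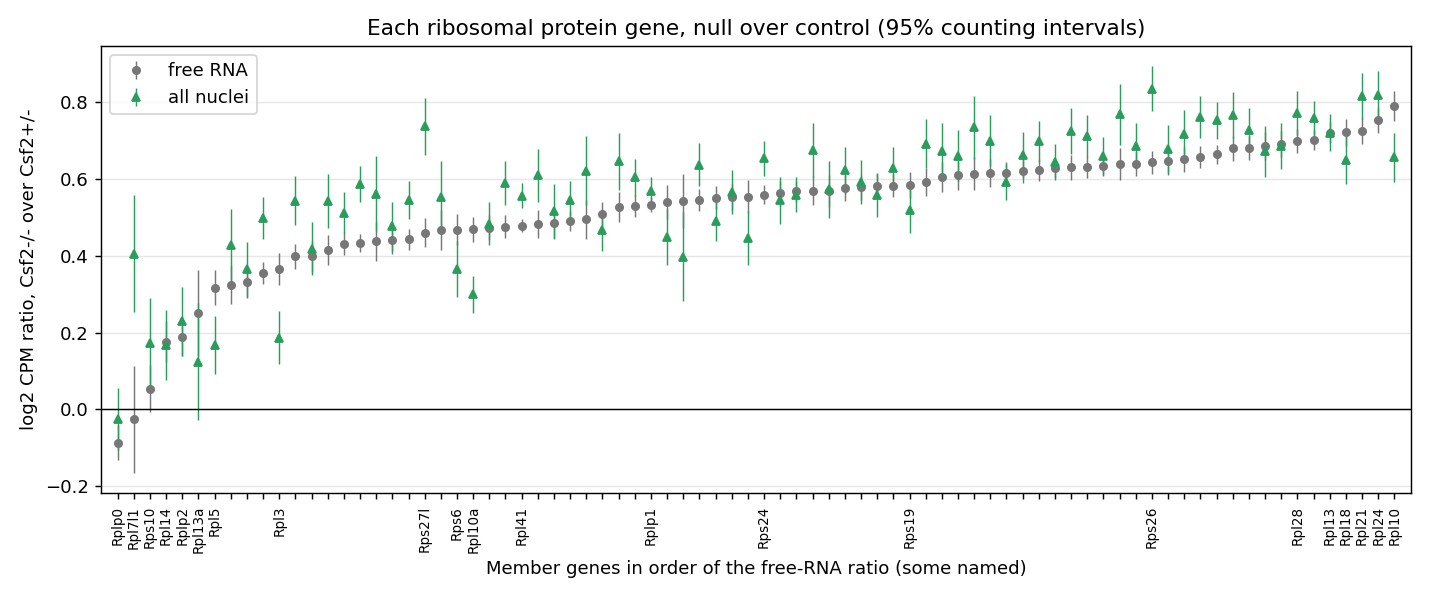
Log2 ratio of CPM, Csf2-/- over Csf2+/-, (vertical axis) for each of the 80 members in order of the free-RNA value (horizontal axis, some named), with grey circles for free RNA, green triangles for all nuclei and bars for 95% counting intervals. Rplp0 is lowest in both (-0.09 and -0.02), Rpl10 is highest in free RNA (0.79), and 73 and 72 members are at least 25% higher (0.32 or more).

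Length moved with the ratio in the other genes. Among genes outside the family, those with mature transcripts under 600 nt had a median log2 ratio of 0.32 in free RNA, those of 600 to 1000 nt 0.18, those of 1000 to 2000 nt -0.11, those of 2000 to 4000 nt -0.37 and those of at least 4000 nt -0.50. In nuclei the same bins ran from 0.35 to -0.15. Ribosomal protein genes, which are short, lay above the other genes of their length in each bin. Their medians were 0.53 under 600 nt (23 members), 0.58 from 600 to 1000 nt (39) and 0.51 from 1000 to 2000 nt (14). Only 3 and 1 members fell in the longer bins. Of the other genes, 50.3% under 600 nt and 35.8% from 600 to 1000 nt were higher in free RNA. Among the members, length and ratio had a Pearson correlation of -0.08 and a Spearman correlation of 0.00. The part of transcript length in the difference was not tested.

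**Figure D5:**
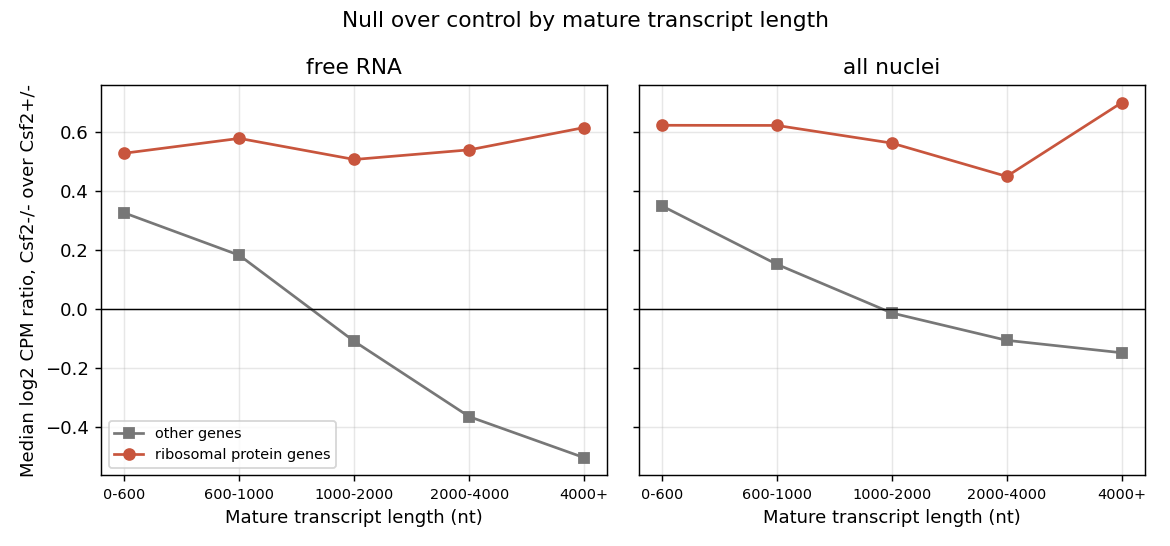
Median log2 ratio of CPM, Csf2-/- over Csf2+/-, by mature transcript length in nt, in free RNA (left) and all nuclei (right), for ribosomal protein genes (red circles) and other genes (grey squares). The grey line falls from 0.32 to -0.50 in free RNA, while the red line stays between 0.51 and 0.61, with 3 and 1 members in the last 2 bins.

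The paralogs differed in level. Rps27l, a p53-responsive relative of Rps27, had 249 and 342 CPM in free RNA, next to 230 and 322 CPM for Rps27. Rpl22l1 had 135 and 187 CPM, next to 181 and 263 CPM for Rpl22. Both followed their partners between the libraries, with log2 ratios in free RNA of 0.46 (Rps27l) against 0.48 (Rps27) and of 0.47 (Rpl22l1) against 0.54 (Rpl22). In nuclei Rps27l had 0.74 (0.66 to 0.81) and Rps27 0.51 (0.44 to 0.59), and their intervals did not overlap. Rpl7l1 had a level far below Rpl7 (273 and 382 CPM) and a ratio of -0.03 (-0.16 to 0.11) in free RNA but 0.40 (0.25 to 0.56) in nuclei. Rpl3l, a muscle gene, had 1 and 2 UMIs in free RNA, where its partner Rpl3 had 8034 and 11381. Rpl10l, a testis gene, had 1 and 0, and Rpl39l, also of testis, 3 and 7. These 3 were not compared.

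Genes that work with the ribosome were taken from set lists. Among ribosomal proteins that carry other names, Fau had 341 and 605 CPM in free RNA (log2 ratio 0.83, 0.80 to 0.86) and 0.79 in nuclei, at the top of the family's range. Rpl36al had 0.37 and 0.28, and Rack1, a scaffold on the small subunit, 0.26 and 0.19. Of these named genes, Fau and Rpl36al were at least 25% higher in free RNA, and Fau also in nuclei.

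Counts for the lists below stand against 8.7% higher and 49.9% lower of all genes in free RNA and 9.93% and 16.4% in nuclei. The 28 ribosome biogenesis factors lay lower than the ribosomal proteins, with 2 higher and 9 lower in free RNA (median -0.10, and 0.22 centred on all genes) and 2 higher and 0 lower in nuclei (0.06). Ncl, encoding nucleolin, had 0.09 in free RNA and 0.24 in nuclei. Npm1, encoding nucleophosmin, had 0.17 and 0.10, and Ubtf, a factor of RNA polymerase I, 0.13 and 0.25. Of 36 translation factors 8 were higher and 6 lower in free RNA (median -0.02, and 0.30 centred) and 6 higher and 1 lower in nuclei (0.10). Eef1a1, the most abundant elongation factor and itself a TOP mRNA, had 860 and 1033 CPM in free RNA (0.26) and 0.32 in nuclei. Pabpc1 had -0.17 and 0.05, and Eif4g1 -0.21 and -0.03, and centring put all 4 values above 0.

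Of the 17 genes of mTORC1 and TOP mRNA control, 16 were measured, with 1 higher and 7 lower in free RNA (median -0.31, and 0.01 centred) and 0 higher and 1 lower in nuclei (-0.07). In free RNA these shares are near those of all genes. Larp1 had -0.20 and 0.04, Larp4 -0.58 and -0.07, and the S6 kinase gene Rps6kb1 -0.42 and -0.10. Of 78 mitochondrial ribosomal protein genes 76 were measured, 24 higher and 6 lower in free RNA (median 0.17) and 23 higher and 5 lower in nuclei (0.17). Its most abundant members in nuclei were Mrps28 (-0.25 and -0.17), Mrps5 (-0.01 and 0.34) and Mrps9 (-0.71 and -0.24). The snoRNA host transcript Snhg4, the 1 measured of its list, had -0.07 in free RNA and -0.39 in nuclei. Among all these lists with more than 1 gene the median of the ribosomal proteins was the highest in both compartments.

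Many members resemble other genes so closely that reads may be divided or lost. In the last 300 nt of the GENCODE M21 transcripts, where 3' tags fall, 72 of the 83 members shared at least 1 stretch of 60 nt with another gene's transcript, and 39 shared at least 50% of such stretches (median 46.9%). Rpl10 shared 88.1%, Rpl10a 65.5%, Rps10 50.2%, Rpl5 50% and Rplp0 33.3%, while Rpl7l1 shared 3.18% and Rpl14 0%. Rpl13a shared 46.9%. Over the 80 members the shared percentage and the level in free RNA had a Spearman correlation of -0.10. The levels of members with close copies, and ratios between members, are uncertain to that extent.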

How the data were processed

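Nuclei of 2 mouse salivary gland libraries were analysed, 1 per genotype. The deposited matrices hold raw UMI counts. Their headers name Cell Ranger 7.0.0, and the submitters' processing notes name GRCm39. The annotation and the counting of intronic reads were not given in the sources used here.

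Barcodes that had 500 UMIs and 300 genes or more, and a mitochondrial share under 5% (67940 control and 55517 null), were clustered with Scanpy 1.11.5, igraph 0.11.9 and scikit-learn 1.9.0. The settings were 2000 variable genes without ribosomal protein, mitochondrial and sex-linked genes and Csf2, 30 components, 20 neighbours with shared-neighbour weights and Leiden resolution 1.0. Of 24 clusters 3 were free RNA, with a secretory share of at least 0.75 times that of barcodes under 1000 UMIs, and 6 were small (under 50 nuclei in a library). Class values used the other barcodes with at least 1000 UMIs. A free-RNA cluster, of 4689 control and 3127 null barcodes, had cycling genes such as Top2a and Mki67 among its top 10. It met the free-RNA rule by its secretory share of 39.4%. Clusters were named from at least 3 markers that had 10 or more UMIs and were 2-fold above the remaining nuclei, more than for any other list, and with either a marker among the top 10 genes or a second list of at most 50% as many; this rule was set after the clustering was seen. Scrublet marked 227 of 8666 control nuclei (2.62%) but 7 of 14260 in the null library (0.0491%), was taken as not having worked there, and no doublets were removed.

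UMIs were summed per compartment and library and scaled to CPM. Ratios carry exact conditional binomial and shares exact binomial 95% intervals, which leave out all but counting error. No test is possible with 1 library a genotype, so sizes are given beside the same over all genes with at least 200 UMIs. The ratios and their intervals were checked on simulated counts with known fold changes and counting error only. Named were the 6 members with the most UMIs, the 5 highest and 5 lowest in each comparison, the 6 most variable between classes, the paralogs, and the 3 genes of each list with the most UMIs in nuclei. Some genes that this rule picks are not reported here. The members and lists were chosen with earlier results of these data known. The list of nuclear-retained transcripts and 13 of 14 snoRNA hosts were not analysed here. Transcript lengths and shared stretches came from GENCODE M21 and promoters from RefSeq, both on GRCm38, by symbol or identifier. Tables were handled with pandas 2.3.3 and NumPy 2.4.6 under Python 3.11.15, intervals computed with SciPy 1.17.1 and figures drawn with Matplotlib 3.10.9.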

Additional observations from a re-analysis of the deposited data

How the results depend on the processing

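No paired analysis was possible because each genotype had 1 library and no replicate could be left out. Counting intervals are narrow here, so small shifts pass them. Leiden resolutions 0.5 and 2.0 and minimum counts of 50 UMIs moved no value. Leaving the secretory UMIs out of the totals gave ribosomal protein shares of 4.12% and 7.004% in free RNA and 1.27% and 2.01% in nuclei, log2 ratios of nuclei over free RNA of -1.705 and -1.802, and a member median of null over control of 0.77 in free RNA (centred on all genes, 0.88). With the free-RNA clusters as free RNA, the shares were 2.56% and 3.70%, the nuclei lay at -1.24 and -1.18, and stromal and immune nuclei of the null library at 1.09 times the estimate. Nuclei with at least 2000 UMIs had 1.04% and 1.45% (-1.32 and -1.40), a member median of 0.49 and 1.06 times the estimate in the null library. With at least 500 UMIs they had 1.08% and 1.64% (null -1.22). Under 1% mitochondrial UMIs gave 1.06% and 1.60% (-1.30 and -1.27), 3.84% in null free RNA and 1.06 times the estimate. The standard set gave 2.57% and 3.77% in free RNA and 1.06% and 1.61% in nuclei. At 1.5-fold, 30 members in free RNA and 43 in nuclei were higher. With no minimum count, 2 members were lower in nuclei. The shares over all genes at these settings are not given here, so these counts have no background beside them. Past 1.5-fold, 2 members stood apart in nuclei over free RNA.

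Subtracting free RNA changed most. The share was then higher in the null library in 53.3% of classes. In all nuclei 16 members were higher and 13 lower (median 0.091), and 53 members stood apart. These counts rest on the small remainder after subtraction and have no share over all genes beside them. The cause was not tested. Chosen after seeing the data were nuclei of matched depth (member medians of 0.44 at 1500 to 2500 UMIs and 0.41 at 2500 to 5000, with 61 and 55 members higher), the mitochondrial reference (1.30 and 1.14 times the estimate) and removing the 5% of nuclei with the highest doublet score, which gave 1.09% and 1.65% (-1.26 and -1.22) and 1.10 times the estimate in the control library.

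Each difference between genotypes rests on 1 library a side, and no depth makes up for that. Depth limits the make-up of the smaller classes, where all members of NK, ILC and T-like nuclei had 1400 (control) and 3084 (null) UMIs in sum.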
